A study of Mus musculus with 2 samples.

Results

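The genes described here are Skint1, Skint3, Skint4 and Skint9, which are 4 of the 11 genes of the Skint family (selection and upkeep of intraepithelial T cells) among the 55487 gene identifiers measured. They were chosen by symbol because their levels in these same cells had been seen to differ by cell type and strain. Their levels and differences are therefore given as a description, with no test. The cells came from thymi of 6-week-old female mice of the inbred strains NOD, BALB/c and B6, with 2 mice of each strain. No engineered allele and no treatment is named in the labels for any of the groups. In every group CD45+ cells were removed with magnets, and Pdpn-CD104- mTEClo cells were sorted, which are medullary thymic epithelial cells (mTEC) from the fraction low in MHC class II, without podoplanin and without CD104, the product of Itgb4. Each mouse carried its own hashtag antibody, and all 6 were pooled into 1 droplet library read from the 3′ end of transcripts, so that strain and hashtag cannot be told apart.

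Skint proteins are transmembrane members of the immunoglobulin superfamily and are relatives of the butyrophilins. In mice, Skint1 is made by medullary thymic epithelium and by suprabasal keratinocytes, and it is required for the thymic maturation of the γδ T cells that populate the epidermis, the dendritic epidermal T cells. Skint3 and Skint9 have been linked in mouse skin to signals that pass from keratinocytes to these T cells during wound repair. Sorted fractions such as this one are rich in mimetic cells, mTEC that take on gene programs of peripheral cell types such as keratinocytes, tuft cells, microfold cells or ciliated cells.

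Of 3447 barcodes (droplets), 2527 had at least 500 genes and under 15% mitochondrial counts, and 1705 of these were assigned to 1 mouse by hashtag. The unit is the UMI, 1 captured RNA molecule, and levels are given as CPM, the UMIs of a gene per 1000000 UMIs summed over the barcodes of a class and mouse. Epithelial barcodes numbered 112 and 121 in the NOD mice, 397 and 576 in BALB/c mice and 210 and 225 in the B6 mice, with summed depths between 2359367 and 9592931 UMIs. The defining epithelial marker Epcam stood between 877 and 1224 CPM in the 6 epithelial sums, and the leukocyte marker Ptprc between 3.81 and 25.6 CPM, highest in both B6 mice. The genes of the 2 proteins absent from the sorted cells, Pdpn and Itgb4, were not at 0 and were lowest in both B6 mice. Pdpn had 17.2 and 27.1 CPM in the NOD mice, 16.2 and 14.4 CPM in BALB/c mice and 1.87 and 3.33 CPM in the B6 mice, and Itgb4 had 87.9 and 103 CPM in the NOD mice, 76.9 and 75.2 CPM in BALB/c mice and 28.5 and 37.9 CPM in the B6 mice. Their part in the strain differences below was not tested. Cell types are marker gates, named after the list of marker genes on which a barcode scored highest. All 13 keratinocyte markers (among them Krt10, Krt1, Ivl and Lor), all 11 tuft markers (among them Trpm5, Dclk1 and Pou2f3) and all 9 microfold markers (among them Ccl20, Gp2 and Spib) were detected in at least 10% of the barcodes of their own gate. The gates caught different shares of each strain. Immature mTEC-gated barcodes made up 45.1% of the NOD, 29.2% of the BALB/c and 4.14% of the B6 epithelial barcodes. Counted as barcodes, tuft-gated barcodes numbered 16 in NOD, 277 in BALB/c and 198 in B6, keratinocyte-gated ones 25, 78 and 37 in NOD, BALB/c and B6, and microfold-gated ones 1, 9 and 32 in NOD, BALB/c and B6. Sums over all epithelial barcodes mix these shares with the level within each gate, and fewer cells of a type and less RNA per cell cannot be told apart in them.

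All 11 Skint genes lie within 2.33 Mb of chromosome 4 (mm10, GENCODE M21). In chromosome order they are Skint8, Skint7, Skint1, Skint4, Skint3, Skint9, Skint2, Skint10, Skint6, Skint5 and Skint11. Skint1 (ENSMUSG00000089773.7) spans chr4:112006269-112029538 on the plus strand, Skint4 (ENSMUSG00000055960.12) chr4:112072016-112168076 on the plus strand, Skint3 (ENSMUSG00000070868.11) chr4:112232245-112300468 on the plus strand and Skint9 (ENSMUSG00000049972.4) chr4:112385969-112433985 on the minus strand. Skint4, Skint3 and Skint9 follow each other with no other Skint gene between them over 362 kb, and Skint1 ends 42.5 kb before Skint4 begins. All 4 are annotated as protein coding.

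The promoter windows of the 4 genes are shown because 3 of the genes share a level pattern by strain and because each window holds a run of bases shared with some other Skint windows. Each window is RefSeq sequence on GRCm38.p6, 300 bases from 250 before to 50 after an annotated start, read 5′ to 3′ on the gene's strand. They are chr4:112006019-112006318 (plus strand) for Skint1, chr4:112231995-112232294 (plus) for Skint3, chr4:112081220-112081519 (plus) for Skint4, which is the second of its 2 annotated windows, and chr4:112433936-112434235 (minus) for Skint9. Capitals mark, in Skint1, Skint3 and Skint4, the longest run of bases found in windows of at least 3 of the 4 genes, and, in Skint9, the longest run that its window shares with any other Skint window.
Skint1: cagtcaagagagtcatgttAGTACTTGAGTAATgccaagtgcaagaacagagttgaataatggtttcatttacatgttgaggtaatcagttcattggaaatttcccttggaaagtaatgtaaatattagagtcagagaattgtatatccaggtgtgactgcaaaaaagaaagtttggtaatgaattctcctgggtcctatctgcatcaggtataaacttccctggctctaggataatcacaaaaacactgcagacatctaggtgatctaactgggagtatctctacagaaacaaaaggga
Skint3: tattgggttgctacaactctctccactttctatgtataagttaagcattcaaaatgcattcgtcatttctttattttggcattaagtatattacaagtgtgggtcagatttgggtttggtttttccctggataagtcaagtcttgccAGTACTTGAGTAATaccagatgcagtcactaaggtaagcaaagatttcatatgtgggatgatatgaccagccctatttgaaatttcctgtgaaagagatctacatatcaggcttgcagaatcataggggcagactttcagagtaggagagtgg
Skint4: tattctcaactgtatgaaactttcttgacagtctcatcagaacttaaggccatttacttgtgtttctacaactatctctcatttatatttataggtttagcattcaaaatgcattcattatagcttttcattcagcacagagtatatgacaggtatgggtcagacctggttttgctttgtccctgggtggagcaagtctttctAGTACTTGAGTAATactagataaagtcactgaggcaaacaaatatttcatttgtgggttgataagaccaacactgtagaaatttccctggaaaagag
Skint9: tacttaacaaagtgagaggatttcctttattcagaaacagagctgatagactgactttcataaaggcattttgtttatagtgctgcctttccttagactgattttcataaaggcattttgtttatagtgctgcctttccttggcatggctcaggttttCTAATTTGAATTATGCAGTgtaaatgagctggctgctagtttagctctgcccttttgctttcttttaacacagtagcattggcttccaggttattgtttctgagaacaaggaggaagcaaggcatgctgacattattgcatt

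The run AGTACTTGAGTAAT, 14 bases long and searched on both strands, lay in windows of Skint1, Skint3 and Skint4 and also of Skint5 and Skint6, and in 5 of all 32851 windows of the RefSeq table (0.0152%). It ended 217 bases before the annotated start in Skint1, 89 before it in Skint3 and 33 before it in Skint4. The other Skint4 window (chr4:112071766-112072065) and the Skint9 window did not hold these letters. The run CTAATTTGAATTATGCAGT of 19 bases in Skint9 recurred only in the window of Skint10, that is in 2 of 32851 windows. The letters TATAAA, the core of a TATA box, lay on the gene's own strand in the window of Skint1. In windows of Skint4 and Skint9 they lay on the other strand only. Searched on both strands, they were in 8 of the 12 Skint windows, though not in that of Skint3, against 13.6% of all windows. Aligned end to end, the windows of Skint4 and Skint3 had 78.3% identical bases and those of Skint9 and Skint10 75.9%. The Skint9 and Skint11 windows had 79.3% over 203 aligned bases. Of the genes with the strain pattern given below, Skint3 and Skint4 hold the 14-base run and Skint9 does not. Skint1, Skint5 and Skint6 hold the run without the pattern. All windows are from a B6 genome and hold no NOD or BALB/c sequence, so their part in the strain pattern was not tested. These runs were found by searching the family's own windows, so their absence elsewhere is no test.

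The coding sequences are related but not near-identical. Skint9 (957 coding bases in the longest protein-coding model) was closest to Skint10 with 86.3% identity, Skint4 (1446 bases) to Skint5 with 81.9%, Skint3 (1374 bases) to Skint2 with 81.7% and Skint1 (1092 bases) to Skint5 with 81.2%. The last 400 bases of the transcripts, where 3′ reads fall, were aligned likewise, and identity was counted over the aligned bases. Skint9 had 82.4% identity with Skint11 over 239 aligned bases and 81.2% with Skint10 over 389, Skint1 69.5% with Skint2, Skint3 64.0% with Skint9 and Skint4 60.7% with Skint2. How reads that matched several copies were counted is not given in the sources used here, so the split of reads between close copies is uncertain, among the 4 genes most for Skint9. Other pairs are closer still, with 90.7% identity between the ends of Skint5 and Skint6 and 86.5% between those of Skint7 and Skint8.

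Skint1, the member needed for epidermal γδ T cells, was found in all 3 strains. Its level over all epithelial barcodes was 31.4 and 32.6 CPM in the NOD mice, 40.5 and 42 CPM in BALB/c mice and 106 and 115 CPM in the B6 mice. The 2 mice of each strain lay close together and the 3 strains did not overlap. Taken over both mice, NOD stood at 29.0% of the B6 level (95% counting interval 24.2 to 34.5%) and BALB/c at 37.4% (33.8 to 41.5%). Intervals here and below are exact and cover counting error only.

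Within the keratinocyte gate, whose markers make the cornified layer of skin, the order was different. Skint1 had 99.0 and 118 CPM in the NOD mice, 258 and 277 CPM in BALB/c mice and 264 and 257 CPM in the B6 mice. BALB/c and B6 keratinocyte-gated sums overlapped, at 104% of B6 (86.9 to 125%), while NOD lay below both in each mouse, at 42.7% of B6 (32.5 to 55.7%). A Skint1 UMI was present in 15 of 25 NOD, 70 of 78 BALB/c and 31 of 37 B6 keratinocyte-gated barcodes. After every barcode was thinned to 5000 UMIs, which left out 3 NOD, 7 BALB/c and 6 B6 barcodes, the shares were 36.4% in NOD, 62.0% in BALB/c and 71.0% in B6.

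The tuft gate, whose markers belong to the chemosensory tuft cells, showed the widest gap for Skint1. Tuft-gated sums held 0 Skint1 UMIs in both NOD mice, 1.57 and 1.39 CPM in BALB/c mice and 93.4 and 81.9 CPM in the B6 mice. In UMIs this was 0 in 16 NOD barcodes, 7 in 277 BALB/c barcodes and 224 in 198 B6 barcodes, so that BALB/c stood at 1.66% of B6 (0.66 to 3.48%). A count of 0 in the NOD tuft gate allows up to 8.75% of the B6 level. The 7 BALB/c UMIs lay in 7 barcodes, a share of 2.53% (1.02 to 5.14%), against 3 of 34 BALB/c barcodes in non-epithelial gates, which should lack the gene, so the BALB/c tuft share is read as background (median depths 14447 and 34278 UMIs). In B6, 84 of 198 tuft-gated barcodes held a Skint1 UMI at a median depth of 10016 UMIs, and 8 of 21 non-epithelial barcodes did at 29906 UMIs, and the thinned shares were 23.5% and 27.8%. By share of barcodes the B6 tuft gate thus did not stand above the 21 B6 non-epithelial barcodes. By level over both mice the B6 tuft gate had 87.9 CPM and the B6 non-epithelial barcodes 65.2 CPM. By mouse the non-epithelial barcodes had 115 CPM in B6 1 and 48.0 CPM in B6 2. The tuft gate, at 93.4 and 81.9 CPM in these mice, thus lay above them in B6 2 only. In the same library the BALB/c tuft gate stood at 1.46 CPM and the BALB/c non-epithelial barcodes at 4.89 CPM. The 420 non-epithelial barcodes with no single hashtag stood at 1.198 CPM. A Skint1 UMI was in 1.19% of these 420, at a median depth of 28022 UMIs. They have no strain, so no B6 background can be read from them. The B6 tuft gate lay above all of these values, and its nearness to background rests on the 21 B6 non-epithelial barcodes alone. The part of free RNA, and of doublets of 2 cells of the same mouse, which hashtags cannot show, was not tested.

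Neighbours on the chromosome were read in the same gate. There Skint8, the family member at the cluster's edge, had 0 and 8.39 CPM in the NOD mice, 3.14 and 2.08 CPM in BALB/c mice and 30.9 and 20.5 CPM in the B6 mice. Skint7, next to Skint1, had 0 and 8.39 CPM in the NOD mice, 8.37 and 9.01 CPM in BALB/c mice and 27.1 and 31.1 CPM in the B6 mice. Skint10 had 13.2 and 54.6 CPM in the NOD mice, 27.2 and 27.4 CPM in BALB/c mice and 25.6 and 26.2 CPM in the B6 mice. Skint2 had 0 and 4.20 CPM in the NOD mice, 3.66 and 0.69 CPM in BALB/c mice and 15.8 and 9.83 CPM in the B6 mice. Skint8, Skint7 and Skint2 had higher values in both B6 mice than in the others, and Skint10 did not. The NOD tuft sums held 7 and 9 barcodes, with at most 2 UMIs of Skint8, of Skint7 or of Skint2. A count of 0 allows 19.7 CPM in NOD 1, above both B6 values of Skint2, so NOD is not read as lower for Skint2. The B6 non-epithelial barcodes, which should lack these genes, stood at 37.1 CPM for Skint8, 44.5 CPM for Skint7 and 63.8 CPM for Skint2, above the B6 tuft gate, so no expression in tuft-gated cells is read from these 3. Within the B6 tuft gate, Skint1 stood at 52.4 CPM in the 9 barcodes with a UMI of Sparc, a matrix glycoprotein gene, and at 91.1 CPM in the 189 without one.

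The order of the gates by Skint1 level was led by keratinocyte-gated barcodes in each strain, and the gates below them differed. Here and below, only gates with at least 5 barcodes in both mice of a strain are ordered. In NOD the keratinocyte gate averaged 108 ± 13.1 CPM (SD, n = 2 mice), and ungated (29.2 CPM), Aire-positive (26.5 CPM), cycling (23.2 CPM) and immature mTEC (17.7 CPM) sums followed with overlapping ranges of the 2 mice, ahead of tuft at 0. In BALB/c the keratinocyte gate averaged 267 ± 13.8 CPM and Aire-positive barcodes 75.9 ± 14.1 CPM, each above the next gate in both mice, with ungated, cycling and immature mTEC sums between 35.6 and 16.4 CPM. In B6 the keratinocyte (260 ± 5.37 CPM), enterocyte-hepatocyte (202 ± 131 CPM), microfold (180 ± 57.8 CPM), Aire-positive (177 ± 10.3 CPM) and ungated (164 ± 28.6 CPM) sums each overlapped the next in this order. Tuft (87.7 ± 8.10 CPM), immature mTEC (82.4 ± 61.3 CPM) and neuroendocrine (39.2 ± 2.47 CPM) sums came after them, again overlapping, and ciliated sums (8.86 ± 12.5 CPM) were lowest. The B6 non-epithelial barcodes, at 65.2 CPM, lay above the last 2. As a share of the UMIs, keratinocyte-gated barcodes gave 53.9% of all epithelial Skint1 UMIs in NOD, 58.0% in BALB/c and 21.5% in B6, although they made up 10.7%, 8.02% and 8.51% of the NOD, BALB/c and B6 epithelial barcodes. In B6 the tuft gate gave the largest share, 26.5%, from 45.5% of the barcodes.

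**Figure D1:**
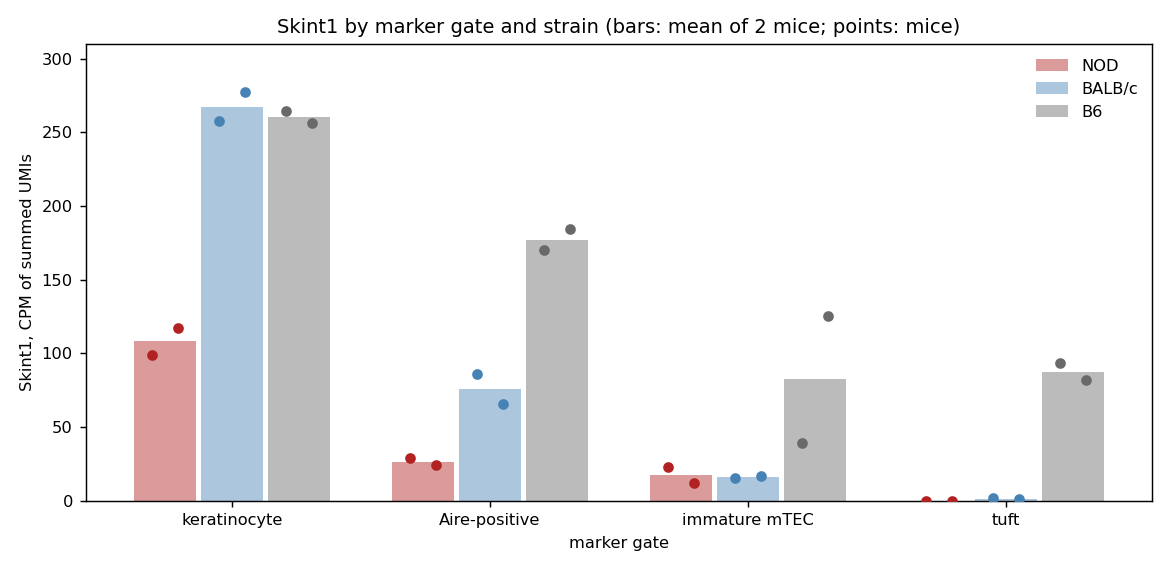
Skint1 in CPM of summed UMIs (vertical axis) in 4 marker gates, with NOD, BALB/c and B6 from left to right in each gate; bars are means of 2 mice and points are the mice. In the keratinocyte gate the BALB/c and B6 points overlap above NOD, and in the tuft gate both B6 points lie at 81.9 and 93.4 CPM while NOD and BALB/c lie at or under 1.57 CPM.

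Skint3, one of the pair linked to wound repair, was nearly confined to B6 barcodes. Over all epithelial barcodes it had 0.84 and 0 CPM in the NOD mice, 0.76 and 0.83 CPM in BALB/c mice and 156 and 286 CPM in the B6 mice. These are 2 UMIs in NOD, 13 in BALB/c and 1701 in B6. NOD stood at 0.19% of the B6 level (0.02 to 0.69%) and BALB/c at 0.36% (0.19 to 0.62%), and the B6 mice did not overlap with any other. The 2 NOD UMIs lay in 2 barcodes, and 11 of the 13 BALB/c UMIs lay in 2 barcodes, with 7 and 4 each.

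Skint3 was the member most concentrated in the keratinocyte gate. There it had 0 CPM in both NOD mice, 1.87 and 0 CPM in BALB/c mice and 1121 and 1718 CPM in the B6 mice. This gate held 1037 of the 1701 B6 UMIs (61.0%) in 8.51% of the barcodes, and 36 of 37 B6 keratinocyte-gated barcodes held a Skint3 UMI. After thinning, 30 of 31 did, against 2 of 18 B6 barcodes in non-epithelial gates. Next in B6 came ungated (450 ± 1.91 CPM) and enterocyte-hepatocyte sums (408 ± 61.8 CPM), which overlapped each other and lay below keratinocyte and above Aire-positive sums (147 ± 125 CPM) in both mice. Aire-positive and microfold sums (98.7 ± 5.72 CPM) overlapped, and microfold lay above tuft (62.7 ± 23.7 CPM) in both mice. Immature mTEC (45.8 ± 46.4 CPM), neuroendocrine (12.99 ± 11.9 CPM) and ciliated sums (4.92 ± 6.96 CPM) closed the order with overlapping ranges, and all 3 lay below the B6 non-epithelial barcodes at 50.4 CPM. The tuft gate, at 45.9 and 79.5 CPM in B6 1 and B6 2, overlapped these barcodes, at 40.1 and 54.0 CPM. After thinning, a Skint3 UMI was in 16.2% of B6 tuft-gated and 11.1% of B6 non-epithelial barcodes.

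Skint4, the first gene after Skint1 on the chromosome, was led by another gate. Over all epithelial barcodes it had 0 and 0.42 CPM in the NOD mice, 11.5 and 0 CPM in BALB/c mice and 117 and 176 CPM in the B6 mice. In UMIs this was 1 in NOD, 76 in BALB/c and 1125 in B6. A single microfold-gated barcode of BALB/c 1 held 75 of the 76 BALB/c UMIs, and it also held 11 of the 19 BALB/c Skint9 UMIs. That barcode had 22097 UMIs, 460 of them Ccl20, and 96.0% of its hashtag UMIs were those of BALB/c 1. It held no UMI of Tmem181c-ps, a pseudogene found in 90.1% of the 323 BALB/c epithelial barcodes of at least 20000 UMIs and in 5 of 435 B6 epithelial barcodes. Both the barcode and that gene were picked after their values were seen, and a wrong hashtag was not tested further. With the barcode BALB/c stood at 3.19% of the B6 Skint4 level (2.49 to 4.02%), and without it at 0.042% (0.0011 to 0.23%) from 1 UMI. NOD stood at 0.14% of B6 (0.0036 to 0.80%) from 1 UMI.

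In B6, Skint4 was highest in the microfold gate, whose marker genes belong to the antigen-sampling M cells of mucosa. Its B6 levels there were 575 and 715 CPM, against 428 and 340 CPM in the keratinocyte gate of the same mice, and the ranges did not overlap. The microfold gate gave 44.3% of the B6 Skint4 UMIs from 7.36% of the barcodes. After thinning, 21 of 27 B6 microfold-gated barcodes held a Skint4 UMI, against 1 of 18 B6 non-epithelial barcodes. Keratinocyte (384 ± 62.7 CPM), enterocyte-hepatocyte (362 ± 237 CPM) and Aire-positive sums (256 ± 61.2 CPM) each overlapped the next, and Aire-positive sums lay above ungated ones (99.0 ± 11.6 CPM) in both mice. Neuroendocrine (17.5 ± 5.49 CPM), tuft (17.5 ± 5.06 CPM), immature mTEC (13.02 ± 18.4 CPM) and ciliated sums (2.95 ± 4.18 CPM) overlapped at the low end. All 4 lay below the B6 non-epithelial barcodes, which stood at 50.4 CPM for Skint4, and their order is not read.

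Skint9, the other gene linked to wound repair, was spread over several gates in B6, with UMIs mostly from tuft-, microfold- and keratinocyte-gated barcodes. Over all epithelial barcodes it had 0.42 and 0.85 CPM in the NOD mice, 2.11 and 0.52 CPM in BALB/c mice and 151 and 165 CPM in the B6 mice. NOD stood at 0.40% of the B6 level (0.08 to 1.17%) and BALB/c at 0.74% (0.44 to 1.16%), or 0.31% (0.13 to 0.62%) without the barcode described above. The 3 NOD UMIs lay in 3 barcodes, and the B6 mice did not overlap with any other mouse.

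By gate, Skint9 in B6 averaged 534 ± 201 CPM in microfold, 314 ± 222 CPM in keratinocyte, 231 ± 275 CPM in enterocyte-hepatocyte, 154 ± 39.1 CPM in tuft, 130 ± 107 CPM in ungated and 116 ± 6.28 CPM in Aire-positive sums, each overlapping the next. The 2 B6 mice differed in which gate was highest, with 677 and 392 CPM in the microfold gate and 157 and 470 CPM in the keratinocyte gate of B6 1 and B6 2. Neuroendocrine (5.45 CPM), immature mTEC (3.93 CPM) and ciliated sums (0 CPM) lay below Aire-positive ones in both mice, and below the B6 non-epithelial barcodes at 80.1 CPM. By mouse the non-epithelial barcodes differed widely, with 229 CPM in B6 1 (5 barcodes) and 28.0 CPM in B6 2 (16 barcodes). In B6 1 only the microfold sum, among the gates listed, lay above them. In the tuft gate Skint9 had 0 CPM in both NOD mice, 0.52 and 0 CPM in BALB/c mice and 182 and 126 CPM in the B6 mice. The tuft gate gave 32.6% of the B6 Skint9 UMIs and 9.29% of the B6 Skint3 UMIs, from 45.5% of the B6 epithelial barcodes. A Skint9 UMI was present in 101 of 198 B6 tuft-gated barcodes, and after thinning in 39.7% of 179, against 16.7% of 18 B6 non-epithelial barcodes, whose median depths before thinning were 10016 and 29906 UMIs.

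**Figure D2:**
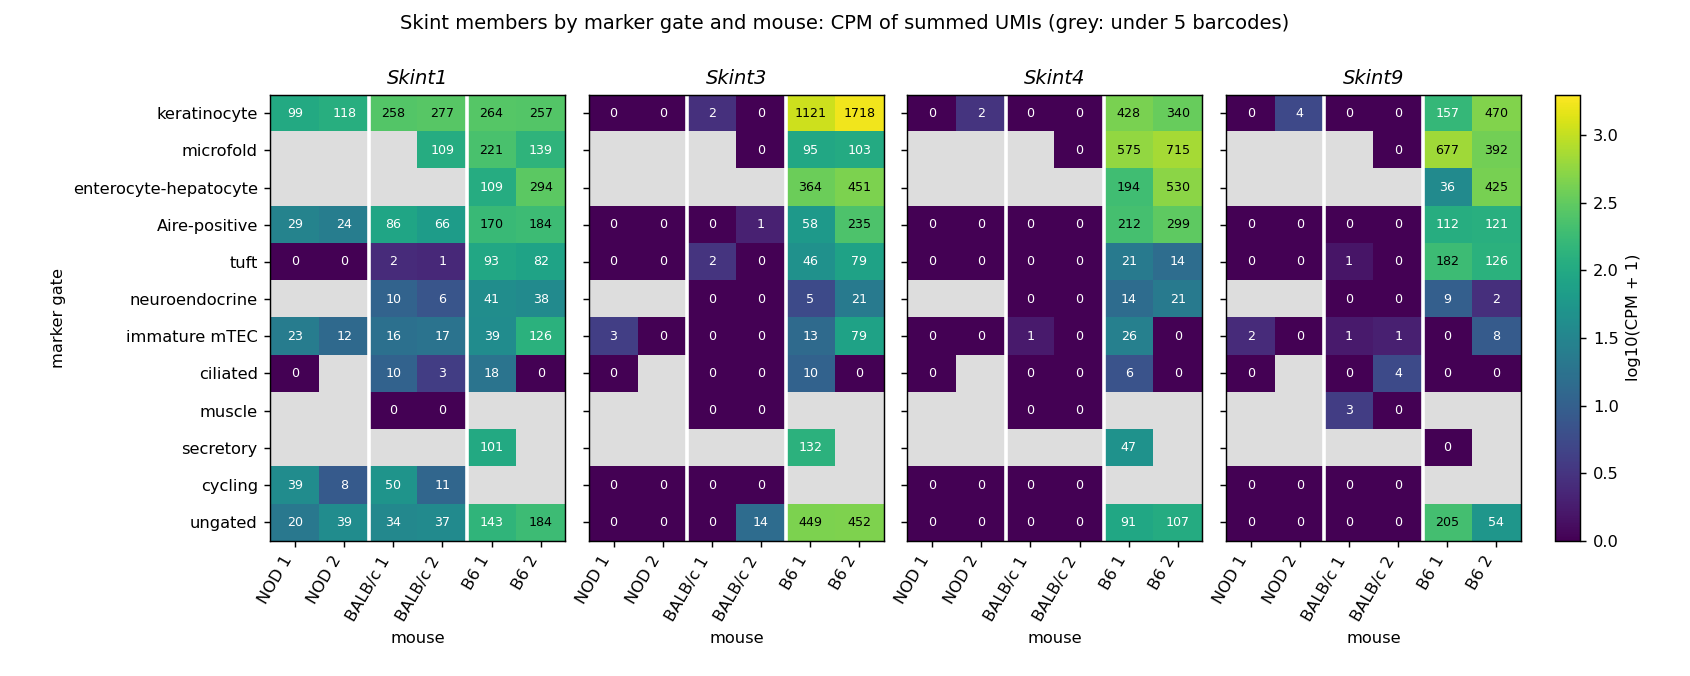
Levels of the 4 genes in CPM of summed UMIs, printed in each cell and coloured as log10(CPM + 1), by marker gate (rows) and mouse (columns, NOD, BALB/c and B6 from left to right); grey cells hold under 5 barcodes. Skint3, Skint4 and Skint9 are filled in the B6 columns, with Skint3 at 1121 and 1718 CPM in the keratinocyte row and Skint4 at 575 and 715 CPM in the microfold row, while Skint1 has values in all 3 strains.

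At the level of single barcodes, Skint3, Skint4 and Skint9 were found together in part of the B6 barcodes. Whether this exceeds what their separate shares give was not tested. A UMI of at least 1 of these 3 genes was present in 6 of 233 NOD (2.58%), 11 of 973 BALB/c (1.13%) and 290 of 435 B6 epithelial barcodes (66.7%). Of the 290 B6 barcodes, 149 held 1 of the genes, 96 held 2 and 45 held all 3. None of the NOD or BALB/c barcodes held all 3. Of the B6 keratinocyte-gated barcodes, 18 of 37 held all 3 and 16 held 2. In the tuft gate 3 of 198 B6 barcodes held all 3, and 97 held 1 gene, which was Skint9 in 73. Outside the epithelial gates, 9 of 21 B6 barcodes held at least 1 of the 3 genes at a deeper median of 29906 UMIs, against 0 of 9 in NOD and 0 of 34 in BALB/c. The part of free RNA or doublets in the B6 counts was not tested.

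**Figure D3:**
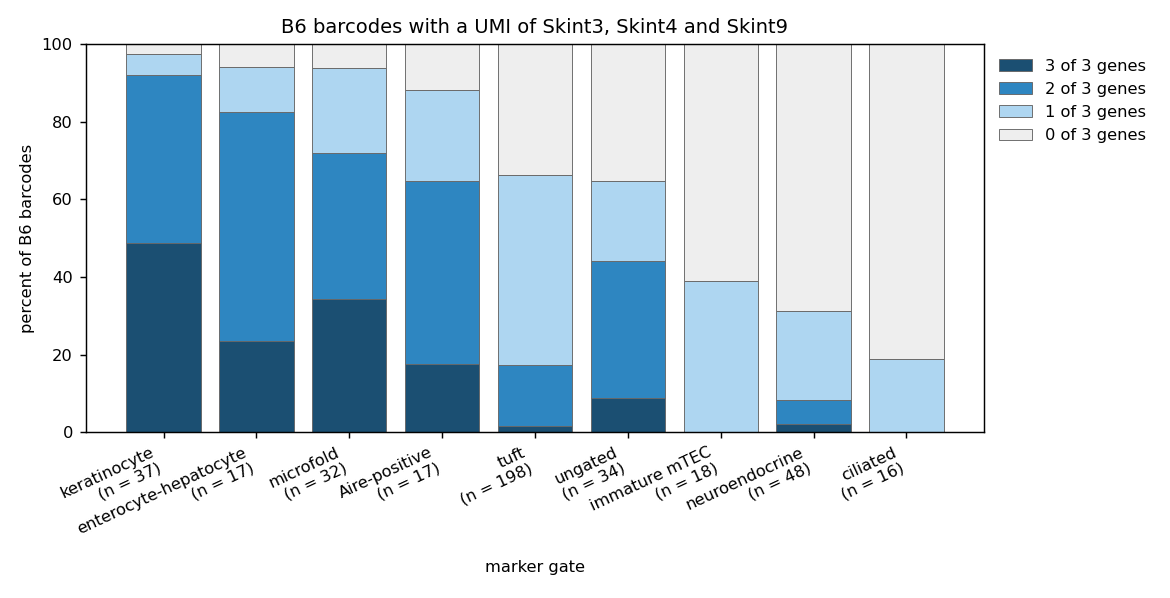
Percent of B6 barcodes (vertical axis) in each marker gate with a UMI of 3, 2, 1 or 0 of the genes Skint3, Skint4 and Skint9, with the number of barcodes under each bar. All 3 genes were found in 18 of 37 keratinocyte-gated and 11 of 32 microfold-gated barcodes, and in 3 of 198 tuft-gated ones.

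The strain pattern was read next along the chromosome, over the genes from Skint8 to Skint11. Of 25 annotated genes in this stretch, 12 had at least 10 UMIs in epithelial barcodes, the 11 Skint genes and the unprocessed pseudogene Gm12819. Gm12819 (chr4:112512740-112521472, plus strand), which lies between Skint9 and Skint2 and was singled out after its values were seen, had 0 UMIs in each NOD mouse, 0 in each BALB/c mouse and 11 and 17 in the B6 mice. It has no test here, since it was picked for this pattern and had counts in B6 alone. With Skint4, Skint3 and Skint9 it makes a run of 4 among these 12 genes whose UMIs come almost entirely from B6, and the genes on either side, Skint1 and Skint2, had UMIs in every mouse.

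**Figure D4:**
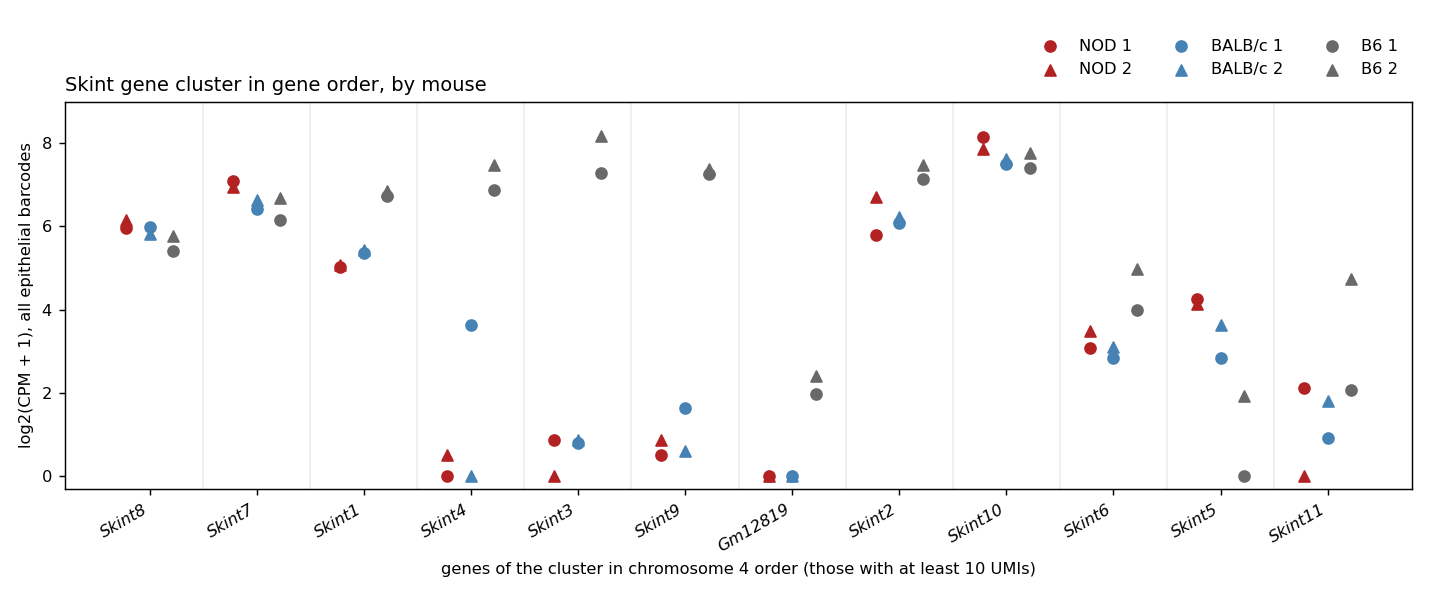
Levels as log2(CPM + 1) over all epithelial barcodes (vertical axis) for the 12 genes of the cluster with at least 10 UMIs, in chromosome order; colours mark NOD, BALB/c and B6 and symbols the mouse number. Skint4, Skint3, Skint9 and Gm12819 are at most at 2.11 CPM in NOD and BALB/c, except the BALB/c 1 point of Skint4 at 11.5 CPM, and Skint1 and Skint2 on either side are present in all 6 mice.

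The other 7 Skint genes were tested. They are what remained of the family once the genes that differed by strain had been chosen, so their counts depend on that choice. Sums over epithelial barcodes per mouse were compared with edgeR's quasi-likelihood test with Benjamini-Hochberg adjustment over 15676 genes. For NOD against B6, 2 of the 7 rose and 0 fell at an adjusted p of 0.05, beside 25.7% of all genes called, 13% higher and 12.7% lower. Skint7, next to Skint1, averaged 129 ± 8.68 CPM in NOD and 86.3 ± 22.1 CPM in B6, a log2 difference of 0.65 ± 0.19 (SE) with an edgeR adjusted p of 0.0490. Skint5, between Skint6 and Skint11, averaged 17.3 ± 1.04 CPM in NOD and 1.41 ± 1.99 CPM in B6 (log2 difference 3.65 ± 0.93, edgeR adjusted p 0.0374). In a fit that adds the gate as a term, Skint7 turned to -0.52 on the log2 scale with an adjusted p of 0.381 (range over all alternatives 0.00203 to 0.381), and Skint5 was too low to enter that fit. Without 1 mouse, Skint7 was called in 1 of 6 fits, the one without B6 2 (0.95 on the log2 scale, against 0.41 without B6 1), and Skint5 in 2, those without B6 1 (2.68) and without B6 2 (9.49), while without either NOD mouse Skint5 missed with edgeR adjusted p values of 0.131 and 0.110.

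For BALB/c against B6, 1 of the 7 fell and 0 rose, beside 9.66% of all genes called, 4.91% higher and 4.75% lower. Skint6, between Skint10 and Skint5, averaged 6.90 ± 1.0 CPM in BALB/c, against 22.8 ± 11.2 CPM in B6 (log2 difference -1.74 ± 0.38, edgeR adjusted p 0.0332). Without B6 2 its difference was -1.11 with an edgeR adjusted p of 0.160, and it was called in 2 of the 6 fits that leave out a mouse. With the gate as a term its difference was -1.75 and was not called (adjusted p 0.237). Reads of Skint5 and Skint6, and of Skint7 and Skint8, may be split wrongly between these close copies. Skint2, the nearest Skint gene after Skint9, averaged 70.2 ± 5.53 CPM in BALB/c, against 160 ± 26.3 CPM in B6, with a log2 difference of -1.21 ± 0.30 and an edgeR adjusted p of 0.0628, and the fit with the gate as a term called it (adjusted p 0.0414, range over all alternatives 6.2e-10 to 0.265). That fit also called Skint7 lower in BALB/c (log2 difference -0.69, adjusted p 0.0319), which edgeR's epithelial sums did not (0.05, adjusted p 0.902). The fit with the gate as a term counts gates of 1 mouse nearly as separate replicates (mouse block correlation -0.041). Its p values thus do not measure the spread between mice. From NOD only the immature mTEC gate entered it in both mice. For NOD against BALB/c, 0 of the 7 passed edgeR's test beside 8.41% of all genes (3.77% higher and 4.64% lower), 2 had an unadjusted p under 0.05, and DESeq2 called 1.

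The remaining Skint genes did not pass in these contrasts. Skint8 averaged 65.9 ± 6.84 CPM in NOD, 58.8 ± 4.67 CPM in BALB/c, against 47.3 ± 8.45 CPM in B6. Skint10 averaged 258 ± 36.7 CPM in NOD, 188 ± 11.4 CPM in BALB/c, against 193 ± 32.6 CPM in B6. Skint11 averaged 1.67 ± 2.37 CPM in NOD, 1.70 ± 1.13 CPM in BALB/c, against 14.5 ± 16.04 CPM in B6, where B6 2 held 101 of the 113 B6 UMIs. Side by side with these, the fitted log2 differences of the chosen genes, given without a test, were -1.71 (NOD minus B6) and -1.44 (BALB/c minus B6) for Skint1, -8.88 and -8.08 for Skint3, -9.21 and -4.84 for Skint4, and -7.84 and -7.03 for Skint9 in the same order of contrasts. The BALB/c value of Skint4 rests on 1 barcode. Fits to so few counts depend on the prior count and are no bound on the fold.

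Butyrophilin genes, relatives of the Skint genes whose products in mouse gut and thymus include ligands for γδ T cells, were low throughout. Of 8 listed, 3 had enough counts to be tested, and Btnl4 and Btnl1 passed the filter on low counts only through B6, where they are high, so their calls are no support. Btnl4 averaged 0.82 ± 0.12 CPM in BALB/c, against 8.29 ± 4.94 CPM in B6 (log2 difference -3.34 ± 0.64, edgeR adjusted p 0.0219), and averaged 2.11 ± 1.21 CPM in NOD (adjusted p 0.0758 against B6). Btnl1, the partner of Btnl6 in the mouse intestine, averaged 0.21 ± 0.30 CPM in NOD, from 1 UMI, against 5.05 ± 3.37 CPM in B6 (log2 difference -4.36 ± 1.15, edgeR adjusted p 0.0322), and averaged 0.77 ± 0.24 CPM in BALB/c (adjusted p 0.0672 against B6). Without B6 2 neither was called (edgeR adjusted p 0.161 for Btnl4 and 0.189 for Btnl1), and they were called in 3 and 1 of the 6 fits that leave out a mouse. Btnl2 did not pass in any contrast, with means of 2.93 CPM in NOD, 2.51 CPM in BALB/c, against 3.62 CPM in B6. Btnl6 was not tested and had 0 and 0 UMIs in the NOD mice, 0 and 1 in BALB/c mice and 9 and 16 in the B6 mice, so its B6 sums stood above every other mouse. Btn1a1 and Btn2a2 had at most 2 and 9 UMIs in a mouse, and Btnl9 and Btnl10 had none. For NOD against BALB/c edgeR called 0 of the 3, with 0 at an unadjusted p under 0.05 and 0 by DESeq2.

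Among 14 listed ligands and cytokines of epidermal γδ T cells, 7 were tested. Il15, a cytokine that maintains intraepithelial lymphocytes, averaged 82.9 ± 7.0 CPM in NOD, 50.4 ± 1.98 CPM in BALB/c, against 22.3 ± 5.47 CPM in B6. It rose in NOD against B6 (log2 difference 1.97 ± 0.19, edgeR adjusted p 0.00116), in BALB/c against B6 (1.15 ± 0.18, adjusted p 0.0128) and in NOD against BALB/c (0.82 ± 0.17, adjusted p 0.0366), in the opposite order of strains to Skint1. With the gate as a term the log2 differences were lower, at 0.90, 0.57 and 0.33 for the same contrasts. The adjusted p values of that fit were 0.0574, 0.0905 and 0.526, the highest of the alternatives for the first and last. Without 1 mouse Il15 was called in 6, 4 and 2 of 6 fits, lost in BALB/c against B6 without BALB/c 1 or BALB/c 2 (adjusted p 0.0773 and 0.0921) and in NOD against BALB/c without any one mouse of these strains (0.0625 to 0.199). Ccl27a, a skin-homing chemokine, averaged 119 ± 10.6 CPM in NOD and 58.3 ± 17.5 CPM in BALB/c (edgeR adjusted p 0.0446), and Raet1e, a ligand of the NKG2D receptor, 4.21 ± 1.15 CPM in NOD and 0.56 ± 0.06 CPM in BALB/c (edgeR adjusted p 0.0480). Ccl27a was called in 2 of the 6 fits that leave out a mouse and Raet1e in 0. Neither was called without composition scaling, and Ccl27a was lost with the gate as a term (log2 difference 0.75, adjusted p 0.588) and with gates from clusters. Raet1e passed the filter on low counts only through its counts in NOD, where it is high, so its call is no support. The counts higher were thus 1 of 7 for NOD against B6 and 1 of 7 for BALB/c against B6. For NOD against BALB/c 3 of 7 were higher, Raet1e among them. In each contrast 0 were lower, and 13%, 4.91% and 3.77% of all genes were called higher in the same order. The median log2 differences were 0.71, 0.17 and 0.53, beside -0.04, 0.00 and -0.02 over all genes tested.

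The receptor RANK, its pathway and Aire bear on Skint1 because RANK signals induce the mature mTEC that express it in mice. Of 7 listed genes, 3 rose and 0 fell in NOD against B6, beside 13% and 12.7% of all genes called, and they were Cd40 (73.8 ± 18.7 CPM in NOD and 28.6 ± 11.4 CPM in B6, edgeR adjusted p 0.0213), Aire (150 ± 59.7 CPM in NOD and 61.5 ± 0.66 CPM in B6, adjusted p 0.0183) and Fezf2 (263 ± 84.0 CPM in NOD and 147 ± 12.3 CPM in B6, adjusted p 0.0233). With the gate as a term Aire and Fezf2 turned to -0.01 and -0.13 on the log2 scale and none of the 3 was called. All 3 are themselves markers of the Aire-positive gate. That fit thus holds their own level partly fixed and cannot decide for them. Without 1 mouse Cd40 was called in 5, Aire in 4 and Fezf2 in 3 of 6 fits, with losses without B6 1 (Aire, adjusted p 0.0909, and Fezf2, 0.0742), B6 2 (Aire 0.0879, Fezf2 0.110), BALB/c 2 (Fezf2 0.0503) and NOD 1 (Cd40, 0.0987). Relb, the only 1 of 7 called in NOD against BALB/c (all genes 3.77% higher), averaged 168 ± 11 CPM in NOD and 123 ± 1.93 CPM in BALB/c (edgeR adjusted p 0.0494), and was called in 0 of 6 fits without 1 mouse. In BALB/c against B6 edgeR called 0 of 7, with 1 at an unadjusted p under 0.05 and 1 by DESeq2.

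Late keratinocyte genes mark the gate in which Skint1 and Skint3 were highest. Of 23 listed, 22 were tested, and 1 rose in each NOD contrast with 0 lower, beside 13% of all genes called higher in NOD against B6, more than in the list, and 3.77% in NOD against BALB/c, about as in the list. Dsc1, a desmosomal cadherin, averaged 28.7 ± 2.64 CPM in NOD and 6.08 ± 4.45 CPM in B6 (edgeR adjusted p 0.0471), and Krt10, a suprabasal keratin, 631 ± 25.9 CPM in NOD and 200 ± 35.7 CPM in BALB/c (edgeR adjusted p 0.0390). Dsc1 was called in 3 and Krt10 in 2 of the 6 fits that leave out a mouse, both lost without either NOD mouse. With the gate as a term neither was called (Dsc1 1.12 on the log2 scale, adjusted p 0.678, and Krt10 0.11, adjusted p 0.943), and Dsc1 was also lost with the 10% mitochondrial bound and with gates from clusters. Krt10 is itself a marker of the keratinocyte gate, so the fit with the gate as a term cannot decide for it. In BALB/c against B6 edgeR called 0 of 22, with 3 at an unadjusted p under 0.05, and DESeq2 called 1 higher and 1 lower. The median log2 difference of the list was 0.76 for NOD minus B6, while Skint1 and Skint3, led by the same gate, were lower in NOD.

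Likeness to other genes was read over 30 sums of at least 10 barcodes per epithelial gate and mouse, as Pearson's r of log2(CPM + 10) among 10731 genes, as a description. These sums share 1 library and, within a mouse, a hashtag, and gates differ in depth. Skint1 was most like Skint2 (r = 0.87), and the most alike genes also held Serpinb2, an intracellular serpin (0.78), Il1rn, the interleukin-1 receptor antagonist (0.78), and Rptn, a cornified envelope protein (0.78). Skint3 was most like Skint9 (0.87), Skint4 (0.86), Sft2d1 (0.80), Skint11 (0.74) and Stfa1 (0.71), a member of a family of near-identical stefin genes. Skint4 was most like Skint9 (0.92), Skint3 (0.86), 4930579C12Rik (0.85), Srxn1, an oxidative stress gene (0.81), and Mocs1, a molybdenum cofactor gene (0.79). Skint9 was most like Skint4 (0.92), Skint3 (0.87), Sft2d1 (0.80), Mocs1 (0.78) and 4930579C12Rik (0.75).

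Within B6 alone, over 12 sums, the lists changed, a setting added after the data were seen. Skint3 was then most like Gltp, a glycolipid carrier (0.95), Plxdc2 (0.94), Ly6d (0.93), Sbsn, a suprabasal keratinocyte gene (0.93), and Aspg (0.93). Skint4 was most like Bcl2a1b, an apoptosis regulator with close copies in the genome (0.98), the fatty acid binding genes Fabp4 (0.97) and Fabp9 (0.96), Srxn1 (0.96) and Lbhd2 (0.95). Skint9 was most like Tuba1c, a tubulin (0.97), and Skint1 most like Ly6d (0.93). Between the 4 genes themselves, r in B6 was 0.83 for Skint4 and Skint9, 0.84 for Skint1 and Skint3, and 0.67 for Skint3 and Skint4, against 0.92, 0.66 and 0.86 for the same pairs over all strains.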

How the data were processed

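The authors deposited raw UMI counts, unscaled, for each gene and hashtag in every barcode; per the submitters' processing notes these came from Cell Ranger 7.0.0 and mm10. Which annotation release was counted, and how reads matching several genes were handled, is not given in the sources used here. GENCODE M21 held 54349 of the 55487 gene identifiers with the same version. mm10 is a B6 genome, and whether diverging NOD or BALB/c reads were lost on it, or gene copies differ by strain, was not tested.

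Barcodes with at least 500 genes and under 15% mitochondrial UMIs went to a mouse when 1 of the 6 hashtags held at least 80% of at least 100 hashtag UMIs. Titles disagree on the second NOD number, and the 2 NOD hashtags were treated as 2 mice. Barcodes mixing mice drop out by this rule, and no doublet caller was run. Gates took the highest mean z-score among the marker lists (at least 0.5, with at least 3 markers detected and a lead of at least 0.1), thresholds set after the data were seen; 101 assigned barcodes lay within 0.1 of a limit and 180 stayed ungated. Leiden clusters (scanpy 1.11.5) gave 1287 of 1461 gated epithelial barcodes the same name.

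Epithelial counts summed per mouse were fitted with edgeR 4.0.16 (TMM, filterByExpr, quasi-likelihood, all 6 mice in 1 fit), a step tested on simulated data. DESeq2 1.42.0 was an alternative, and limma 3.58.1 gave the fit with the gate as a term. That fit took 30 sums of at least 10 barcodes per gate and mouse, with the mouse as a block. Its NOD sums were immature mTEC (46 and 59 barcodes), Aire-positive (12) and cycling (11) of NOD 1, and keratinocyte (16) of NOD 2. The labels do not say whether mice of a strain were housed or handled apart, so p-values of the sums per mouse measure the spread between these mice. A limit for 0 uses 3 counts per group; percent of B6 and shares of barcodes carry exact 95% binomial intervals. Promoters and transcripts were aligned with Biopython 1.88. Genes named are the 4 members, the Skint and butyrophilin genes with UMIs, called genes of the other lists (at most 4 per list and contrast), gate markers and the 5 most alike genes, of which 1 is not reported here. The members and lists were chosen with earlier results of these data known.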

Additional observations from a re-analysis of the deposited data

Results flagged for a closer look

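Barcodes with no single hashtag were left out of every comparison, and they also held the 4 genes. There were 822 such barcodes, 402 of them epithelial. In those 402, Skint1 stood at 40.3 CPM, Skint3 at 23.95 CPM, Skint4 at 43.1 CPM and Skint9 at 47.8 CPM, all above the 0.301 CPM that a count of 0 allows there. In the 420 non-epithelial barcodes with no single hashtag the 4 genes stood between 0.829 and 1.29 CPM. At least 1 UMI was present in 29.1% of the 402 epithelial barcodes for Skint1 and in 9.45% for Skint3. These barcodes have no strain, so no level by strain can be read from them.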

How the results depend on the processing

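The number of genes called changed with the fit, the filter and the mice used. With the gate as a term it was 247 for NOD minus B6, 226 for NOD minus BALB/c and 449 for BALB/c minus B6, against 4031, 1319 and 1515 (10374 genes tested in place of 15676). With no filter on low counts it was 3090 for NOD minus BALB/c and 3472 for BALB/c minus B6. With mice paired by replicate number as a block, for BALB/c and B6 only, it was 2320; the numbers only name the mice, and the NOD hashtags could not be paired. Leaving out 1 mouse gave 2249 to 3205, 150 to 1012 and 228 to 1845 calls for the 3 contrasts in the same order. Without composition scaling the median of all genes was -0.12 for NOD minus B6 and -0.13 for NOD minus BALB/c, and the NOD minus BALB/c calls were 414 higher and 947 lower, against 591 and 728. With the gate as a term 4 called genes turned. They were Skint7 (-0.52), Aire (-0.012) and Fezf2 (-0.13) for NOD minus B6 and Relb (-0.0090) for NOD minus BALB/c. Aire and Fezf2 are themselves gate markers, and the cause was not tested. Of the named calls only Il15 in NOD against B6 was called in all 6 fits that leave out a mouse; Raet1e and Relb (NOD against BALB/c) were called in 0.
Levels of the 4 genes kept their pattern. Skint1 in NOD was 27.8% of B6 with clusters and 25.2% as a mean of per-barcode CPM (27.8 to 30.3% without 1 mouse), and in BALB/c 35.9 to 39.2% without 1 mouse. In the keratinocyte gate BALB/c was 111% with clusters and 92.8% by per-barcode mean (99.2 to 107% without 1 mouse) and NOD 35.6% by per-barcode mean (38.1 to 45.3%). In the tuft gate BALB/c was 1.41% with clusters, 1.48% at 90% hashtag purity and 2.68% by per-barcode mean (1.56 to 1.79%). Skint3 in BALB/c was 0.164% with a 10% mitochondrial bound and 0.955% by per-barcode mean (0.280 to 0.515%). Without 1 mouse, Skint4 in BALB/c was 0 to 7.81% and Skint9 0.330 to 1.34%, and in NOD Skint3 was 0 to 0.377%, Skint4 0 to 0.288% and Skint9 0.265 to 0.536%. Skint1 in B6 keratinocytes was 279 CPM with clusters and 331 CPM by per-barcode mean (257 to 264 CPM), and Skint4 in the B6 microfold gate 771 CPM with clusters (575 to 715 CPM). Without 1 B6 mouse Skint1 in the tuft gate was 81.9 to 93.4 CPM, Skint3 in the keratinocyte gate 1121 to 1718 CPM and Skint9 in the microfold gate 392 to 677 CPM. Of the 5 most alike genes, log2(CPM + 1) shared 2 for Skint1 and 3 for each of the others, sums of at least 20 barcodes 2 for each, and B6 sums alone 0 for Skint1, Skint3 and Skint9 and 1 for Skint4. NOD values rest on 233 epithelial barcodes and 1 microfold-gated barcode, fewer than in either other strain.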
